A study of Macaca mulatta with 10 samples.

Results

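Fast fiber contractile isoforms are the proteins by which fast-twitch muscle fibers contract and relax, and the genes described here were taken by name. Of 9 names, namely *TNNT3*, *TNNC2*, *TNNI2*, *MYBPC2*, *ATP2A1*, *MYLPF*, *MYH2*, *MYH1* and *PVALB*, 7 were matched to one of the 28595 genes measured. 6 of them were matched by the symbol itself, and *MYLPF* by its current symbol *MYL11*. *MYH1* and *MYH2*, heavy chains of fast myosin, were matched to no gene by symbol and are given no value. RNA-Seq libraries of poly(A) RNA came from the skeletal muscle and the adipose tissue of 5 male rhesus monkeys, each animal giving 1 library of each, 10 in all. rhesus_950807 was hyperinsulinemic and carried the heterozygous nonsense mutation K410X of *PRKD2*, a protein kinase D gene, and rhesus_920401, rhesus_940129, rhesus_940313 and rhesus_950509 were controls, all named as in the labels. The paper also reports obesity, systolic hypertension and insulin resistance in rhesus_950807. With 1 such animal its insulin state, its genotype and these traits cannot be told apart. No drug treatment is named in the labels, ages are not given there, and neither the muscle nor the fat depot sampled is named. Levels are read counts per gene, or RPKM, which are reads divided by the transcript's length and the library's mapped total.

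Skeletal muscle is a mosaic of slow fibers, which resist fatigue and burn fuel by oxidation, and fast fibers, which contract quickly and rely more on glycolysis. Both kinds build the same machine from different gene copies. Calcium released from the sarcoplasmic reticulum binds troponin C, which with troponin I and troponin T moves tropomyosin and lets myosin pull on actin, and a calcium pump then returns the calcium to the store. Since most of these parts have a fast and a slow gene, the mRNA of the copies reports on the fiber makeup of a muscle sample. In bulk tissue fewer fibers of a type and less RNA per fiber cannot be told apart.

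Mapped reads were 33961486 to 43268985 in muscle and 30669915 to 41780234 in adipose tissue, and 48.2% to 64.6% of them were counted in genes. *PRKD2* stood at 1.14 to 1.79 RPKM in the muscle of the controls and at 0.387 RPKM in that of rhesus_950807, and at 3.27 to 6.12 and 3.66 RPKM in adipose tissue. Skeletal muscle markers, 5 found of 6, summed to 44870 to 58496 RPKM in control muscle and 58138 RPKM in rhesus_950807. Heart muscle markers, 3 found of 6, summed to at most 0.132 RPKM in muscle, with *NPPA* and *MYL7* at 0 there. Of 6 adipocyte markers 5 were higher in adipose tissue of the controls, and *FABP4* was listed higher in muscle. The adipose libraries of rhesus_920401 and rhesus_940313 stood apart by skeletal muscle RNA: *ACTA1*, skeletal muscle actin, was at 101 and 80.9 RPKM there, against 0.444 to 1.72 RPKM in the other 3. Results that rest on these libraries are given with and without them.

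The fast troponins were among the most abundant mRNAs of every muscle library. *TNNT3* (ENSMMUG00000016589, chromosome 14 from 1810116 to 1827228, plus strand, the coordinates being those of the files, whose genome build is not given in the sources used here) encodes fast troponin T, the subunit that ties the complex to tropomyosin. Its muscle RPKM was 6867, 6365, 8290 and 7004 in controls rhesus_920401, rhesus_940129, rhesus_940313 and rhesus_950509 and 8361 in rhesus_950807. *TNNI2* (ENSMMUG00000004838, chromosome 14 from 1750312 to 1751686, plus strand) encodes fast troponin I, the inhibitory subunit, and stood in the same order at 6097, 5109, 7903 and 6389 RPKM, and at 8274 RPKM. The level in rhesus_950807 was thus above all controls for both genes, by a margin smaller than the spread among the controls. *TNNC2* (ENSMMUG00000021025, chromosome 10 from 18672129 to 18676331, plus strand) encodes fast troponin C, the calcium sensor. It was at 15269, 12333, 20135 and 12824 RPKM in the controls and at 19312 RPKM in rhesus_950807, which lay below rhesus_940313.

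Of the thick filament genes, *MYLPF* (ENSMMUG00000021847, chromosome 20 from 28435860 to 28437595, plus strand), the fast regulatory myosin light chain, had the highest mean RPKM of the 7, though not the most reads. It stood at 17151, 13747, 18528 and 15943 RPKM in the controls and at 22275 RPKM in rhesus_950807, above every control. *MYBPC2* (ENSMMUG00000006715, chromosome 19 from 56663495 to 56674951, plus strand), fast myosin binding protein C, which braces the thick filament, was at 1647, 1965, 3174 and 2108 RPKM, and at 2658 RPKM in rhesus_950807. That value lay inside the range of the controls.

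The remaining genes clear calcium. *ATP2A1* (ENSMMUG00000023526, chromosome 20 from 26941869 to 26944464, minus strand) encodes SERCA1, the calcium pump of fast fibers, and its RPKM was 9207, 6952, 11333 and 7575 in the controls and 8521 in rhesus_950807. Parvalbumin, encoded by *PVALB* (ENSMMUG00000008778, chromosome 10 from 80699983 to 80713891, minus strand), is a soluble calcium buffer that speeds relaxation in the fastest fibers of small mammals. *PVALB* was at 233, 96.7, 923 and 116 RPKM in the controls and at 759 RPKM in rhesus_950807. Libraries rhesus_940313 and rhesus_950807 were thus high and the other 3 low, with no value between. *TNNC2* lies wholly inside the gene *CTSA* on the opposite strand, and *ATP2A1* inside an unnamed gene on the opposite strand. The libraries keep strand, but whether the counting used it is not given in the sources used here, so reads of such partners cannot be told apart.

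**Figure D1:**
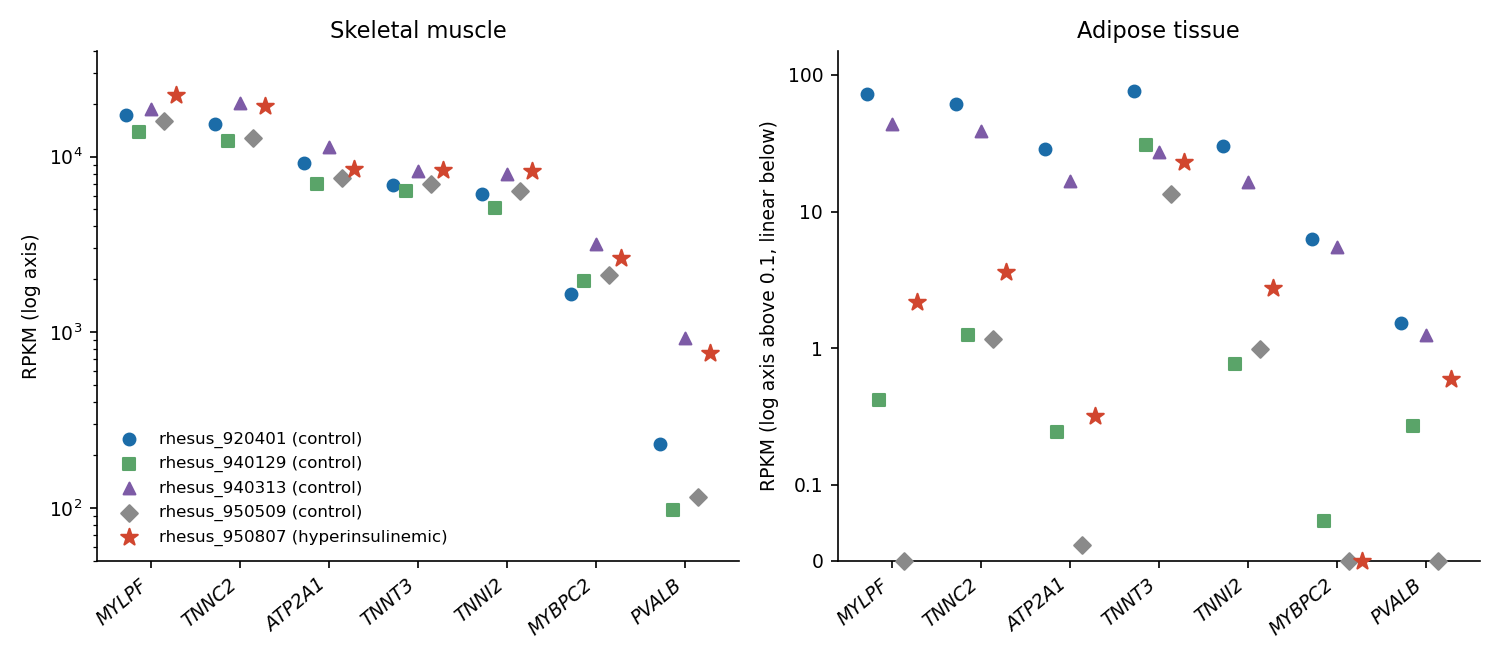
RPKM of the 7 genes in skeletal muscle (left, log axis) and adipose tissue (right, log axis above 0.1 and linear below), 1 point per library, with the 4 control monkeys and rhesus_950807 marked by symbol. Muscle levels run from 96.7 RPKM for *PVALB* in rhesus_940129 to 22275 RPKM for *MYLPF* in rhesus_950807. In adipose tissue the libraries of rhesus_920401 and rhesus_940313 are the highest for every gene but *TNNT3*, for which rhesus_940129 (30.6 RPKM) lies above rhesus_940313 (27.4 RPKM).

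Ordered by mean RPKM over the controls, a level per length, *MYLPF* (16342 ± 2027, SD, n = 4) and *TNNC2* (15140 ± 3569) came first, *ATP2A1* (8767 ± 1958), *TNNT3* (7131 ± 820) and *TNNI2* (6374 ± 1157) followed, and *MYBPC2* (2224 ± 662) and *PVALB* (342 ± 392) came last. *MYLPF* and *TNNC2* did not differ beyond their spread, with a ratio of means of 1.08 and the same order in 4 of 5 libraries. Each of the steps from *ATP2A1* to *TNNT3* (1.23-fold) and from *TNNT3* to *TNNI2* (1.12-fold) held in 5 of 5 libraries, although the ranges of the controls overlapped. No overlap was seen between *TNNC2* and *ATP2A1* (1.73-fold), *TNNI2* and *MYBPC2* (2.87-fold) or *MYBPC2* and *PVALB* (6.505-fold). The gene models used for *ATP2A1* and *MYBPC2*, of 1210 and 1230 bases, are short for such large proteins, which limits levels set between genes. The model of *MYLPF*, of 393 bases, is the shortest of the 7, and its first place rests on the division by length. By reads *MYLPF* was below *TNNC2*, *ATP2A1* and *TNNT3* in every muscle library. In rhesus_940313 it had 315065 reads, against 704827, 593370 and 439406. Together the 7 genes took 6.92% to 9.27% of all gene reads in control muscle and 8.45% in rhesus_950807, a share inside the range of the controls.

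Among the controls *TNNT3* and *MYLPF* varied least, with coefficients of variation of 11.5% and 12.4%. *TNNI2* (18.1%), *ATP2A1* (22.3%), *TNNC2* (23.6%) and *MYBPC2* (29.8%) varied more. *PVALB* stood apart at 115%, its highest control 9.54-fold above its lowest, against 1.30-fold to 1.93-fold for the other 6. The controls kept a common order: rhesus_940313 was the highest of the 4 for 7 of 7 genes, and rhesus_940129 the lowest for 6 of 7, the exception being *MYBPC2*, lowest in rhesus_920401. Both counts were the same after TMM and after median-of-ratios scaling. rhesus_950807 was the highest of all 5 libraries for 3 genes by RPKM (*TNNT3*, *TNNI2* and *MYLPF*) but for 1 gene, *MYLPF*, after either of those scalings. As a description over only 5 libraries, which share each gene's scaling by the mapped total, the log2(RPKM + 1) of each gene correlated with the mean of the other 6 by Pearson's r of 0.768 (*MYBPC2*) to 0.988 (*TNNC2*).

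**Figure D2:**
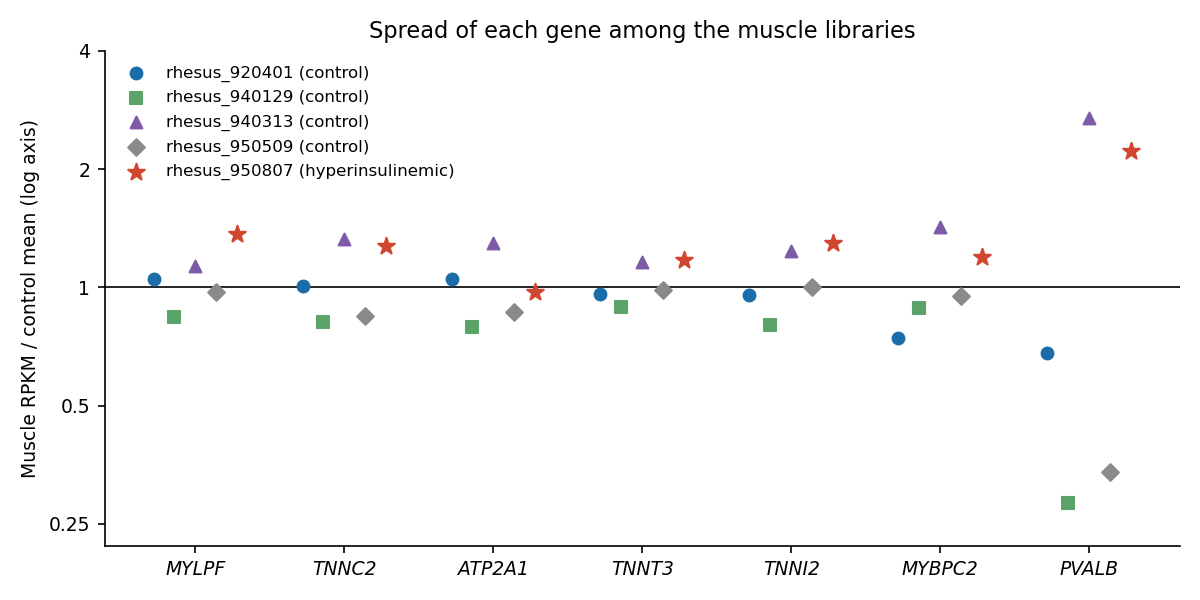
Muscle RPKM of each gene divided by its mean over the 4 controls (log axis), 1 point per library, with the line at 1 marking the control mean. Library rhesus_940313 is above the line for 7 of 7 genes and rhesus_940129 below it for 7 of 7, and *PVALB* spreads most, from 96.7 to 923 RPKM among the controls.

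The genes outside the group whose log2(RPKM + 1) followed the mean of the 7 most closely over the 5 muscle libraries, of 2643 compared, were *FLOT2* (r = 0.998), an unnamed gene, *ASPSCR1*, *RAB5B* and *PRKAG3* (r = 0.997). *PRKAG3*, the AMPK subunit found mainly in fast fibers, was at 126, 89.5, 260 and 115 RPKM in the controls and at 247 RPKM in rhesus_950807. Its high libraries were those of *PVALB*. *FLOT2* ranged from 33.6 to 49.6 RPKM, a narrow range, and 5 points chosen as the best of so many carry little weight. The share of mapped reads counted in genes was also highest in rhesus_950807 and rhesus_940313, at 64.6% and 62.1%, and its part in these correlations was not tested.

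Muscle and adipose tissue were compared within the 4 controls, which asks how closely these genes are tied to muscle. All 7 were called higher in muscle by edgeR's quasi-likelihood test, at an adjusted p of 1.93e-06 (*TNNT3*) to 4.76e-04 (*MYLPF*). A call needed an adjusted p under 0.05 and an absolute log2 difference of at least 1, and 22% of the 11173 genes tested were called higher in muscle. The log2 difference was 9.02 ± 0.76 (SE) for *TNNT3*, the smallest, and 11.01 ± 1.87 for *ATP2A1*, the largest, which correspond to 520-fold and 2061-fold. The median was 10.54. Every control muscle library lay above every control adipose library for all 7, as it did for 8.47% of the genes tested. The filter on low values used the mean over both tissues, to which the muscle levels gave most for all 7. *PVALB*, with a mean of 0.760 RPKM in control adipose tissue, passed only through its muscle level. When libraries were scaled to their mapped totals, the median difference of all genes went from −0.23 to −1.61 and the split of calls from 2459 higher and 3308 lower to 799 and 7040. The 7 genes were called higher in muscle there too.

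Genes with related roles were called too. All 7 measured of 8 other fast fiber genes were called higher in muscle, by a median log2 difference of 10.39. Among them the light chain *MYL1* (10.39), the Z-disc genes *MYOZ1* (10.63) and *ACTN3* (9.13), tropomyosin *TPM1* (6.92) and the heavy chain *MYH4* (11.05) were called. Of the 10 slow fiber counterparts tested, 9 were called higher in muscle with a median over the 10 of 7.001, and *TPM3*, a tropomyosin also made outside muscle, was called lower by a log2 difference of −1.76. Sarcomere genes shared by both fiber types (8 of 8 tested, median 8.95), genes of excitation-contraction coupling (6 of 6, median 9.996) and glycolytic genes (9 of 9, median 6.31) were called higher in muscle as well. Among regulators of fast fibers 5 of 5 tested were called higher, *NFIX* by 3.39, *TBX15* by 8.85 and *MYOD1* by 9.57, and among regulators of slow fibers 2 of 5 were, *NFATC1* by 2.99 and *VGLL2* by 10.70. Some of these calls depended on the test: limma on log2(RPKM + 1) called 3 of the 5 fast regulators and 7 of the 10 slow counterparts, and limma on log2(RPKM + 0.1) called 4 and 8. DESeq2 called 7 of the slow counterparts and gave no adjusted p for 2 others or for 1 of the 9 glycolytic genes. One of the slow regulators was called lower in muscle by both limma fits and with scaling to the mapped totals, and 3 of the 5 were called higher by DESeq2, with the animal as a block and without rhesus_950509. These lists contain genes known for muscle, and their counts are read beside the 22% of all genes.

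The traces in adipose tissue were small and uneven. *TNNC2* stood at 60.8 and 38.7 RPKM (1601 and 1205 reads) in the adipose libraries of rhesus_920401 and rhesus_940313, but at 1.25, 1.16 and 3.61 RPKM (31, 37 and 122 reads) in those of rhesus_940129, rhesus_950509 and rhesus_950807. *TNNI2* was at 30.02 and 16.4 RPKM in the first pair and at 0.763, 0.979 and 2.74 RPKM in the other 3. *MYLPF* (72.6 and 43.9 RPKM) and *ATP2A1* (28.7 and 16.6 RPKM) fell off further, to 0.415, 0 and 2.19 RPKM and to 0.243, 0.0210 and 0.316 RPKM in rhesus_940129, rhesus_950509 and rhesus_950807, where *ATP2A1* in rhesus_950509 was a single read. *MYBPC2* was at 6.25 and 5.49 RPKM in rhesus_920401 and rhesus_940313, at 0.0530 RPKM (2 reads) in rhesus_940129, and at 0 reads in rhesus_950509 and rhesus_950807. *PVALB*, scarce even in muscle, was at 1.53, 0.271, 1.24 and 0 RPKM in the controls and at 0.596 RPKM (12 reads) in rhesus_950807.

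Of the 7 genes, *TNNT3* departed from this pattern. Its adipose RPKM was 75.8, 30.6, 27.4 and 13.3 in the controls and 23.0 in rhesus_950807, with at least 643 reads in every library. The pair of libraries with skeletal muscle RNA therefore did not stand apart from the others for *TNNT3*, since rhesus_940129 lay above rhesus_940313. Among the other fast fiber genes, *ACTN3* and *TPM1* also had reads in every adipose library. *ACTN3* was at 2.64 to 11.2 RPKM in the controls and at 8.19 RPKM in rhesus_950807. The rest of that list, such as *MYL1* and *MYOZ1*, had 0 reads in the lowest control. Of the slow copies, *TNNT1*, *TNNC1* and *ATP2A2* also had reads in every adipose library, while *MYL2* and *MYBPC1* had 0 reads in the lowest control. *TNNT1* was at 1.68 to 9.92 RPKM in the controls and at 0.643 RPKM in rhesus_950807.

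Set against the muscle level of the same animal, adipose *TNNT3* was 1.10%, 0.480%, 0.330% and 0.190% in the controls and 0.275% in rhesus_950807, the highest of the 7 genes in 5 of 5 animals. The median of the other 6 genes was 0.411% and 0.182% in rhesus_920401 and rhesus_940313, and 0.00681%, 0.000139% and 0.0143% in rhesus_940129, rhesus_950509 and rhesus_950807. *ACTA1* stood close to those medians in the first pair, at 0.343% and 0.270%, and was at 0.00374%, 0.00182% and 0.00505% in the others. *TNNT3* was thus 2.69-fold and 1.81-fold above the median of the other 6 where skeletal muscle RNA was present, and 70.5-fold and 19.2-fold above it in rhesus_940129 and rhesus_950807. In rhesus_950509 *MYBPC2*, *MYLPF* and *PVALB* were at 0 reads and *ATP2A1* at 1 read, where 3 reads would be 0.00122% for *MYLPF* and 0.00294% for *MYBPC2*, while *TNNC2* and *TNNI2* had 37 and 28 reads. Of all adipose reads of the 7 genes, *TNNT3* held 39.4% and 27.6% in rhesus_920401 and rhesus_940313 and 81.4% to 94.4% in the other 3 libraries, against 17.7% to 20.6% in muscle. *DES*, desmin, which smooth muscle also makes, was likewise at 0.367% to 1.47% in every animal. Smooth muscle and pericyte markers, 6 found of 6, summed to 574 to 1352 RPKM in control adipose tissue and 684 RPKM in rhesus_950807, and their part in the *TNNT3* level was not tested.

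**Figure D3:**
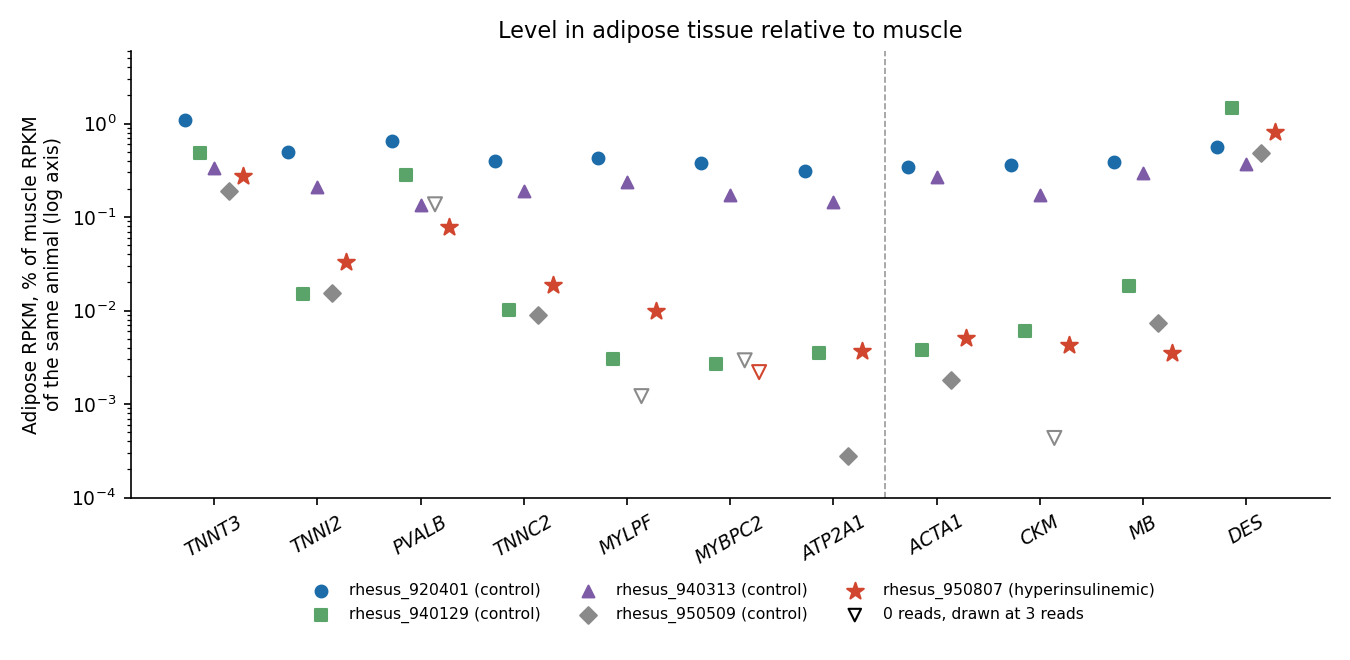
Adipose RPKM as a percent of the muscle RPKM of the same animal (log axis) for the 7 genes, left of the dashed line, and for 4 skeletal muscle markers, 1 point per animal. Open triangles mark libraries with 0 reads, drawn at the level of 3 reads. *TNNT3* lies between 0.190% and 1.10% in all 5 animals, while *ATP2A1* falls from 0.312% in rhesus_920401 to 0.000277% in rhesus_950509.

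The pair of adipose libraries with skeletal muscle RNA kept some muscle ratios but not all. *TNNC2* over *TNNI2* was 2.03 and 2.36 there by RPKM, inside the 2.01 to 2.55 of the 5 muscle libraries. It was 1.19 to 1.64 in the other 3 adipose libraries, which rests on only 17 to 83 reads of *TNNI2*. *MYLPF* over *TNNC2* was 1.19 and 1.14 in the pair, inside the 0.920 to 1.24 of muscle. *TNNT3* over *TNNI2* was 2.52 and 1.67, outside the 1.01 to 1.25 of muscle. Without the adipose libraries of rhesus_920401 and rhesus_940313, the 7 genes were still all called higher in muscle, and the log2 difference rose to 14.97 for *TNNC2* and to 9.69 for *TNNT3*. The value of *TNNC2* then rests on 31 and 37 adipose reads, in rhesus_940129 and rhesus_950509, and is no measure of the true fold. For *ATP2A1*, *MYBPC2* and *MYLPF* at most 9, 2 and 5 reads were left in either library.

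In muscle, the hyperinsulinemic monkey was compared with the controls to ask whether its fast apparatus differed. Its insulin state, its *PRKD2* genotype and its other traits cannot be told apart in this comparison. No gene of the 7 was called by edgeR's quasi-likelihood test (adjusted p of 0.771 to 0.971), and the share called among all 8306 genes was 0%. 754 genes, and none of the 7, had an unadjusted p under 0.05, and DESeq2 called 88 genes, none of them among the 7. The log2 difference was 0.06 for *TNNT3* (95% interval −0.59 to 0.70), 0.20 for *TNNI2* (−0.48 to 0.89) and 0.18 for *TNNC2* (−0.55 to 0.92). It was 0.27 for *MYLPF* (−0.37 to 0.92), 0.09 for *MYBPC2* (−0.70 to 0.88) and −0.21 for *ATP2A1* (−0.95 to 0.54). For these 6 the intervals of this fit do not reach a difference of 1 on the log2 scale in either direction. They take the spread of the single animal as that of the controls. *ATP2A1*, with the bound closest to that size, moved to −0.31 when 1 of the controls was left out. Intervals of such other fits are not given here. *PVALB* had a log2 difference of 1.01 with an interval of −1.04 to 3.07, so that neither a sizeable rise nor a fall can be told from the spread of the controls. Leaving out rhesus_940313, the high control, moved *PVALB* to 2.14, still with no call.

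By RPKM rhesus_950807 was above all controls for 3 of the 7, against 34.9% of the genes tested, so that count is near the background. With 1 animal against 4 an exact permutation test cannot give a p below 0.2, and *MYLPF* reached that value. The signs of small differences were not fixed: *MYBPC2* was −0.051 without rhesus_920401, and *TNNT3* was −0.0024 without rhesus_940129.

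The fast share of each isoform pair was also described, and 5 of 7 pairs had both copies measured. *TNNT3* made up 98.7%, 90.7%, 99.2% and 98.2% of the summed RPKM of *TNNT3* and the slow *TNNT1* in the controls and 99.8% in rhesus_950807. *TNNC2* held 98.8%, 89.0%, 99.2% and 98.2% against the slow troponin C *TNNC1*, and 99.8% in rhesus_950807. All 5 animals therefore gave muscle with mostly fast troponin, and rhesus_940129 had the most of the slow copies.

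*MYLPF* held 98.8%, 92.3%, 99.2% and 98.9% against the slow light chain *MYL2*, and 99.9% in rhesus_950807. *ATP2A1* held 99.7%, 97.9%, 99.9% and 99.7% against *ATP2A2*, the slow and cardiac pump, and 99.9% in rhesus_950807. *MYBPC2* differed from the others, at 73.0%, 86.1%, 91.7% and 86.7% against *MYBPC1*, and at 78.9% in rhesus_950807, which lay inside the range of the controls. By reads, with no correction for length, its share was 46.0%, 66.1%, 77.7% and 67.2%, and 54.1% in rhesus_950807. *MYBPC2* thus had fewer reads than *MYBPC1* in rhesus_920401. The RPKM of *MYBPC2* rests on a gene model of 1230 bases. *MYBPC1* did not follow the other slow copies. It was at 709 RPKM in the muscle of rhesus_950807, above the 286 to 608 RPKM of the controls. *TNNT1*, *TNNC1*, *MYL2* and *ATP2A2* were below all controls in that library. The share of *MYBPC2* is therefore not read as fiber makeup, a choice made after these values were seen. *MYBPC1* is kept among the slow counterparts wherever they are counted.

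**Figure D4:**
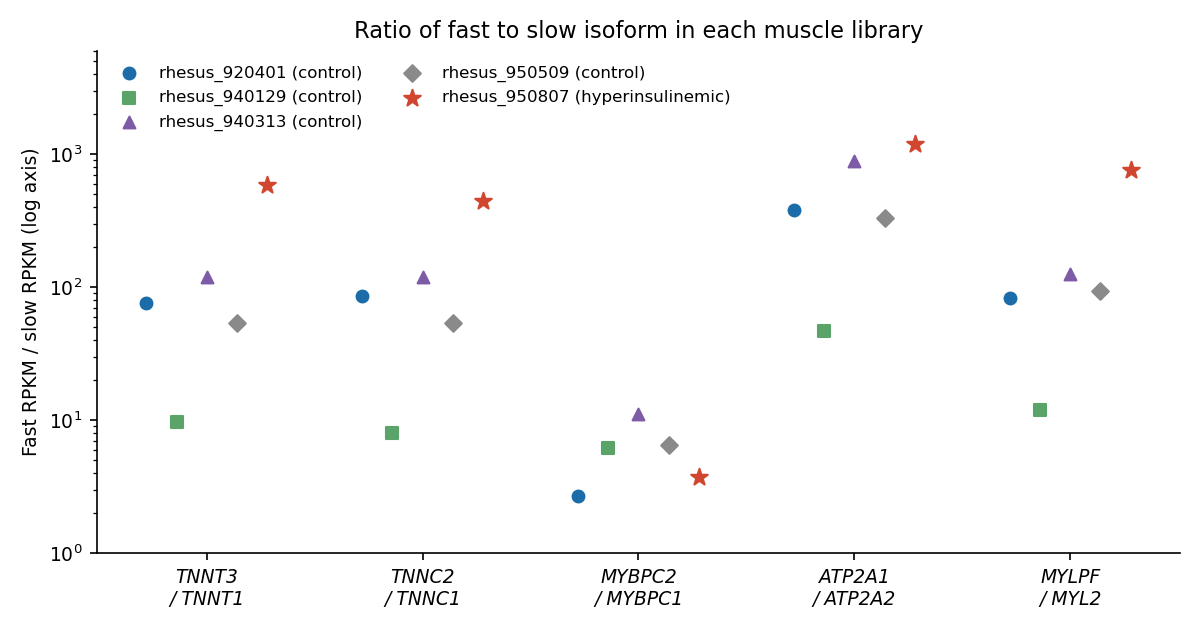
Ratio of fast to slow isoform RPKM (log axis) for 5 isoform pairs, 1 point per muscle library. rhesus_950807 has the highest ratio for 4 of the 5 pairs, up to 1197 for *ATP2A1* over *ATP2A2*, and rhesus_940129 the lowest for the same 4, while for *MYBPC2* over *MYBPC1* the ratio in rhesus_950807 is 3.75 and the lowest is 2.71 in rhesus_920401.

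As ratios of RPKM, *TNNT3* over *TNNT1* was 76.3, 9.77, 119 and 54.0 in the controls and 586 in rhesus_950807. *MYLPF* over *MYL2* was 82.6, 12.0, 126 and 92.8 in the controls and 767 in rhesus_950807. The size of the *MYLPF* ratios rests on its gene model of 393 bases. The slow copies carried most of that range. *TNNT1* ran from 69.7 to 651 RPKM in the controls and was 14.3 RPKM in rhesus_950807, while *TNNT3* differed among the controls by 1.30-fold. In the comparison of muscle the slow copies had log2 differences of −4.20 (*TNNT1*), −3.76 (*TNNC1*), −4.00 (*MYL2*), −3.03 (*ATP2A2*) and 0.71 (*MYBPC1*), and the slow heavy chain *MYH7* of −3.98, against −0.21 to 1.01 for the 7 fast genes. None was called, with adjusted p of 0.482 to 0.635 for these 6. All 10 slow counterparts tested had a median log2 difference of −3.77, with 0 called by edgeR and 1, *TPM3*, called lower by DESeq2. Leaving out rhesus_940129, the control with the most slow mRNA, brought that median to −2.36. By edgeR 8 of the 10 had an unadjusted p under 0.05, against 754 of all 8306 genes tested. These genes share the same muscle libraries and are not independent. *TPM3* was itself called lower in muscle than in adipose tissue. The difference between the fast and slow sets was not tested. Smooth muscle and pericyte markers summed to 54.7 RPKM in the muscle of rhesus_950807 and to 93.1 to 140 RPKM in control muscle, 6 of 6 being measured, and their part in the slow gene levels was not tested.

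**Figure D5:**
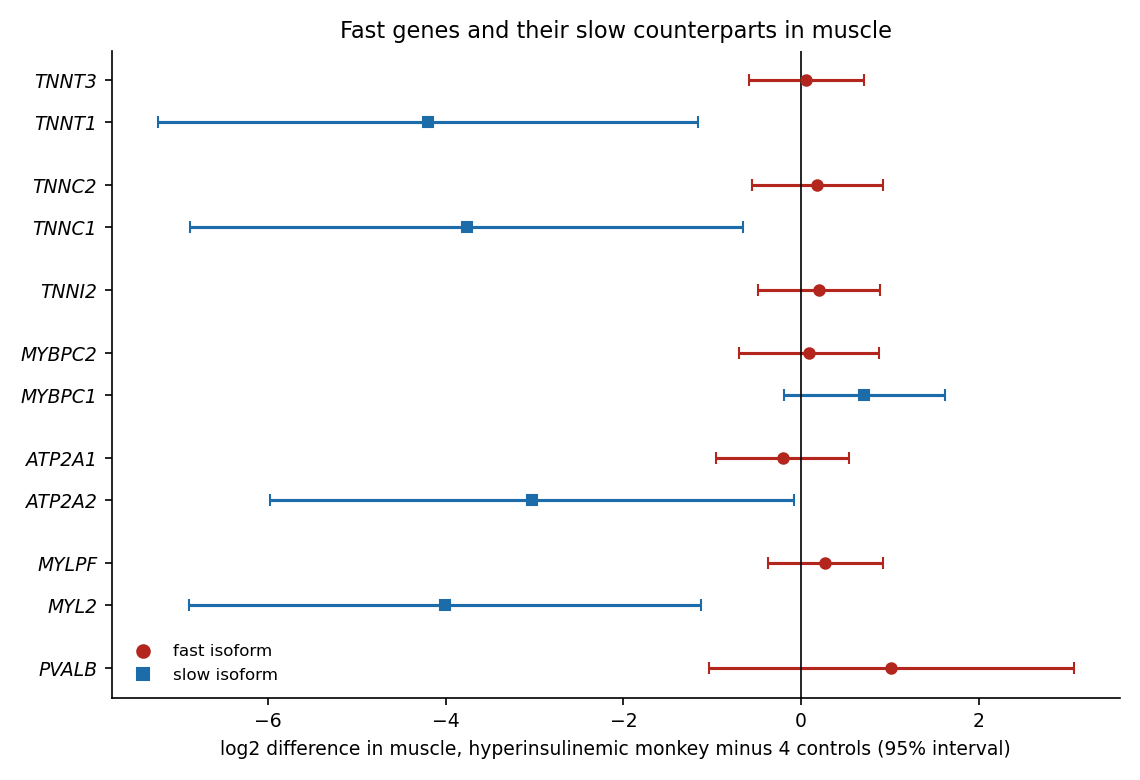
Log2 difference between the hyperinsulinemic monkey and the 4 controls in muscle with its 95% interval (edgeR, x axis) for the 7 fast genes (circles) and the slow copies of 5 of them (squares). The intervals of the fast genes all include 0, those of 4 slow copies lie below 0 before correction for the number of genes tested, and no gene shown was called.

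Other groups of the fast program gave no call in this comparison either. The 7 other fast fiber genes had a median log2 difference of 0.04, with *MYL1* at 0.04, *MYOZ1* at 0.29, *TPM1* at 0.37, *ACTN3* at −0.15 and *MYH4* at −0.30. For the 9 glycolytic genes the median was −0.07, with *GAPDH* at −0.07 and *PYGM*, muscle glycogen phosphorylase, at −0.37. Sarcomere genes shared by fiber types (8 tested, median 0.13), genes of excitation-contraction coupling (6, median 0.06), regulators of fast fibers (6, median 0.32) and regulators of slow fibers (4, median −0.33) likewise had 0 called. The median over all genes tested was −0.03.

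In adipose tissue 6 of the 7 genes passed the filter on low values (a mean of at least 1 RPKM), and *PVALB* did not pass. *MYBPC2*, *ATP2A1* and *MYLPF* passed only through the libraries of rhesus_920401 and rhesus_940313. None was called between rhesus_950807 and the controls by edgeR (adjusted p of 0.9999 for each), as for 0% of the 11981 genes tested, of which 286 had an unadjusted p under 0.05, *MYBPC2* among them, and 11 were called by DESeq2. *TNNT3* had a log2 difference of −0.84 (95% interval −2.53 to 0.84), *TNNI2* of −2.30 (−6.24 to 1.65) and *TNNC2* of −2.98 (−7.44 to 1.47). The 2 controls with skeletal muscle RNA in their adipose libraries were also the highest for *TNNI2* and *TNNC2*. Without the adipose libraries of rhesus_920401 and rhesus_940313 the differences became −0.16, 1.44 and 1.37, none called, and the other genes no longer passed the filter. *MYBPC2* had 0 reads in rhesus_950807 and in control rhesus_950509, and no fold is given.

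The difference between rhesus_950807 and the controls, here called the effect, was also compared between adipose tissue and muscle by an interaction term. No gene of the 6 tested was called by edgeR (adjusted p of 0.902 to 0.972), nor was any of the 7938 genes tested (0%), of which 434 had an unadjusted p under 0.05, *MYBPC2* among them, and 16 were called by DESeq2, none of the 6 among them. The difference of effects was −0.84 for *TNNT3*, −2.47 for *TNNI2* and −3.14 for *TNNC2*, and became −0.11, 1.30 and 1.27 without the adipose libraries of rhesus_920401 and rhesus_940313. With such intervals as −8.20 to 1.92 for *TNNC2*, a difference between tissues was not detectable in these libraries.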

How the data were processed

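The authors mapped reads of strand-specific poly(A) libraries with Tophat (release 1.2.0 in the submitters' processing notes, a later one in the paper) and kept unique hits. Which counting tool, build and annotation they used is not given in the sources used here. The deposited read counts per gene were not normalized, and the authors scaled them by transcript length and mapped reads to give the deposited RPKM values. Libraries held 18091221 to 26850260 reads in genes. Groups came from the labels, with 1 library per animal and tissue, so p-values measure the spread between animals.

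Symbols came from an Ensembl name table (15556 of 28595 genes). Genes averaging 1 RPKM or more were tested with edgeR 4.0.16 (quasi-likelihood, TMM, two-sided, Benjamini-Hochberg over all genes tested) in R 4.3.3, which was tested on simulated data. The spread of the single hyperinsulinemic animal was taken as that of the controls. Alternatives were other scalings and filters, DESeq2 1.42.0, limma 3.58.1 on log2(RPKM + 1) and log2(RPKM + 0.1), leaving out libraries, a fit of all 10 libraries, and the animal as a block. The tissues are paired by animal, whose deviations from the control means correlated across genes by −0.21 to 0.14. Counting limits (3 reads for a count of 0) cover counting error only.

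The genes and lists were chosen with earlier results of these data known. Named genes are the 9 members, the isoform pairs, measured myosin heavy chains, up to 4 of each other list by mean RPKM, and the 5 genes most like the members. *PRKD2*, *CTSA*, *MYH3*, *FABP4*, *NPPA*, *MYL7* and *TPM3* are named besides, *FABP4*, *NPPA*, *MYL7* and *TPM3* after their values were seen. No sequence is shown, since no genome or sequence table was used here.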

Additional observations from a re-analysis of the deposited data

Results flagged for a closer look

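In 5 of 26 groups of 4 control values tested, 1 control lay far from the other 3 (Dixon's test at 95%). Chance flags about 1 group in 20 where values follow a normal distribution. The test was run on RPKM and on percentages without taking logs, and percentages are bounded. The number of flags depends on that scale and is not set against chance. The muscle *PVALB* level of rhesus_940313, 923 RPKM, lay far above the other controls. The muscle library of rhesus_940129 lay far below the other controls in the fast share of 4 isoform pairs, which share that library and are not independent. Its fast share was 90.7% for troponin T, 89.0% for troponin C, 97.9% for the sarcoplasmic reticulum calcium pump and 92.3% for the regulatory myosin light chain. For myosin binding protein C its share of 86.1% lay between those of rhesus_920401 and rhesus_950509.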

How the results depend on the processing

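The counts of members called (7 of 7 between the tissues, 0 in the other 3 comparisons) were the same under every alternative run, 51 counts in all. Of 323 recomputed differences of single genes, 316 kept their direction and their call, and 7 changed sign, none being called. *TNNT3* in muscle ranged from −0.0024 to 0.094 when each control was left out and was −0.021 in a fit of all 10 libraries, and *MYBPC2* ranged from −0.051 to 0.26. Without the adipose libraries of rhesus_920401 and rhesus_940313, *TNNC2* and *TNNI2* turned to 1.37 and 1.44 in adipose tissue and to 1.27 and 1.30 in the difference of effects. *PVALB* in muscle ranged from 0.71 to 2.14. With the animal as a replicate block, all 7 were still called higher in muscle and no call of the 7 changed in either comparison that uses both tissues. Over all genes, calls in muscle went from 0 to 14 without control rhesus_940313, to 10 with no filter and to 88 in DESeq2. In adipose tissue they went from 0 to 6 without control rhesus_920401 and to 33 without the adipose libraries of rhesus_920401 and rhesus_940313. With 1 hyperinsulinemic animal, small differences were not detectable. By reads in place of RPKM the mean fast share of the controls moved from 84.4% to 64.3% for myosin binding protein C and from 99.3% to 98.3% for the calcium pump, both by over 1 SD of the controls. The other mean fast shares, the differences of rhesus_950807 from them and the median adipose percentages of the controls moved by less than 1 SD under each alternative. The causes of these changes were not tested.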

Other observations

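The chromosome 16 neighbourhood of *MYH4*, a fast myosin heavy chain, held 3 genes without a symbol in the name table, and no identity is given to them here. In a RefSeq gene list *MYH1*, *MYH2* and *MYH3* come next after *MYH4* on chromosome 16, in that order. Whether they are among these unnamed genes was not tested, so it is not known here whether *MYH1* and *MYH2* were measured. ENSMMUG00000009774 (10249433 to 10273663, minus strand) was at 5335, 4043, 4918 and 4108 RPKM in the muscle of controls rhesus_920401, rhesus_940129, rhesus_940313 and rhesus_950509 and at 5733 RPKM in that of rhesus_950807. ENSMMUG00000009778 (10278190 to 10305634, minus strand) was at 2383, 1655, 1364 and 1760 RPKM in the controls and at 1746 RPKM in rhesus_950807. The third, ENSMMUG00000020084, was at 44.5 to 62.8 RPKM in the controls and at 65.1 RPKM in rhesus_950807, while *MYH4* itself was at 121 to 177 RPKM and at 131 RPKM. The first 2 were therefore among the abundant mRNAs of every muscle library. In adipose tissue ENSMMUG00000009774 was at 14.9 and 11.9 RPKM in rhesus_920401 and rhesus_940313 and at 0.00448 to 0.207 RPKM in the other 3 libraries, the split seen for 6 of the 7 fast genes.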
